A study of Mus musculus with 8 samples.

Results

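The 6 genes Fos, Fosb, Fosl2, Jun, Junb and Jund, which encode subunits of the transcription factor AP-1, were followed in RNA-seq counts from mice short of the sodium channel NaV1.2. They were taken by symbol from the 54446 gene rows of the deposited count matrix, and all 6 were among the 17395 genes that passed a filter on low counts. The samples were 4 from wild-type mice (WT replicates 1 to 4) and 4 from their homozygous littermates (HOM replicates 1 to 4, labelled Scn2agt/gt), which carry a gene trap on both copies of Scn2a, the gene of NaV1.2. The trap is a cassette within the gene that cuts its transcript short, and it is carried in the germ line, not limited to 1 cell type. All mice were adult, of the strain labelled C75BL6, bred from heterozygous pairs and untreated, and the labels do not state exact age, sex, brain region or time of collection. The comparison asks how severe NaV1.2 deficiency alters gene expression, and the Fos genes are set against the Jun genes within it.

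AP-1 is a dimer of basic leucine zipper proteins. Fos proteins do not form stable dimers among themselves and bind DNA with a Jun partner, whereas Jun proteins can also pair with each other. In neurons Fos, Fosb and Junb are immediate early genes, switched on within minutes of synaptic activity and calcium entry through CREB and serum response factor, and Fos RNA is widely used as a mark of recently active cells. Jund is expressed more steadily, and Jun is induced by activity as well as by injury and stress through the JNK kinases.

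Total counts per library lay between 27993412 and 37538988. Scn2a stood at 371 to 477 CPM in WT and at 112 to 147 CPM in HOM, where CPM is the count scaled to library size after TMM correction for composition. The labels call the source neuron, yet 6 oligodendrocyte markers summed to between 3147 and 5483 CPM and 6 astrocyte markers to between 3200 and 4432 CPM over the 8 libraries, so the RNA was not of neurons alone. In such mixed RNA fewer cells of a type and less RNA per cell cannot be told apart. The labels do not say that each sample came from its own mouse, so p-values measure only the spread between these samples. Some features of the libraries bear on what follows. HOM replicate 4 held 2 counts of 4 Y-linked genes against 4452 to 5984 in each other library. It thus read as female, whereas all 4 WT libraries held Y-linked RNA, so sex was not matched between the genotypes. WT replicate 4 held far more choroid plexus RNA than the rest. The calls of the 6 genes and of the listed genes that changed without either library, or without both, are given.

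The DNA just before the gene starts is shown for Fos and Junb, which fell in HOM, and for Jun, which did not, as examples of each. Each run gives the 250 bases before the RefSeq start, read 5′ to 3′ on the gene's strand (RefSeq, GRCm38.p6), with the letters of the searched motifs in capitals. The windows lie at chr12:85473640-85473889 on the plus strand for Fos, chr8:84978749-84978998 on the minus strand for Junb and chr4:95052223-95052472 on the minus strand for Jun. A stretch of 25 bases of Fosb, chr7:19310091-19310115 on the minus strand, follows for comparison.
Fos: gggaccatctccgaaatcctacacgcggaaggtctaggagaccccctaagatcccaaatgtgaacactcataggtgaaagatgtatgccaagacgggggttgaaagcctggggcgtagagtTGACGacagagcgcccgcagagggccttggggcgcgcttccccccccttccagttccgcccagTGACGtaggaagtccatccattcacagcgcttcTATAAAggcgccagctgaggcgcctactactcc
Junb: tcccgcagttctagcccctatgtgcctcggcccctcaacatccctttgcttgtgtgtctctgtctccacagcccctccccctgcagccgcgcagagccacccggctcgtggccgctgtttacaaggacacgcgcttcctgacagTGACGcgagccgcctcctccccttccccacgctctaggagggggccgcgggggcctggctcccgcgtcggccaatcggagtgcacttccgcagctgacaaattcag
Jun: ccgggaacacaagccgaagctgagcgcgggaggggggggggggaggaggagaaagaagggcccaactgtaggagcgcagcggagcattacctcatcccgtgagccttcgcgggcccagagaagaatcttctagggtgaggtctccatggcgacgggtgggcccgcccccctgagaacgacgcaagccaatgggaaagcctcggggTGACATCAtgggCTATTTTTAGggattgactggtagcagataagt
Fosb: gagttgcgggTGACGcaagcgcggg

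The core of the CRE, the DNA element that CREB binds (TGACG, searched on both strands and contained in the full CRE TGACGTCA), occurred in Fos from 66 and from 129 bases before the start, in Fosb from 60 and in Junb from 106. Of all 32851 RefSeq windows of this length, 17.8% held it. The Jun window held no TGACG; it held TGACATCA, a variant AP-1 site, from 45 bases before the start (2.93% of all windows) and a MEF2 site from 33 bases before it (2.92% of all windows). The Fos window also held the TATA box letters TATAAA (12.4% of all windows). None of the 6 windows held the full CRE (1.55%), the AP-1 site TGANTCA (6.75%) or a CArG box, the site of serum response factor (1.47%). Fosl2, which fell in HOM, and Jund, which did not, both held none of the 7 motifs. Their RefSeq starts lie 671 and 1210 bases from the GENCODE starts, so their windows may not be the ones in use. A match describes letters only, and elements farther upstream lie outside these windows.

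All 3 Fos genes and 1 of the 3 Jun genes, Junb, fell in HOM, and the other 2 Jun genes did not pass the test. The 4 lower genes stood at 27.2% (Fos), 39.0% (Fosb), 47.8% (Fosl2) and 47.5% (Junb) of their WT means. Over all 17395 genes tested 2.94% were called lower and 2.47% higher (edgeR quasi-likelihood test, adjusted p under 0.05), 5.40% in either direction. The CPM of the genotypes did not overlap, with HOM lower, at these same 4 genes and at 7.47% of all genes tested; with HOM higher that was so at 0 of the 6 and at 6.63% of all. The median log2 fold change of the 6 genes was -1.07, that of the 3 Fos genes -1.36, that of the 3 Jun genes 0.13 and that of all genes tested 0.00. The plot of CPM by library gives every value.

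**Figure D1:**
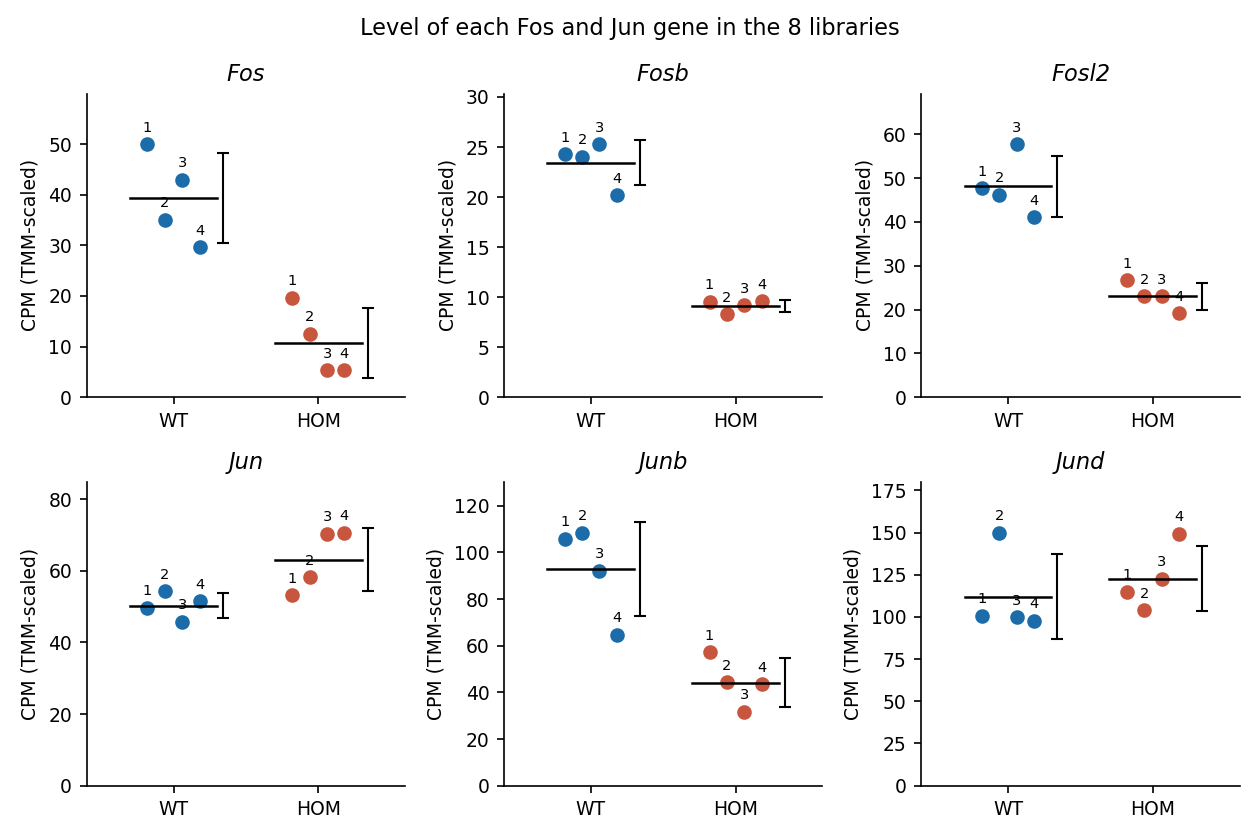
CPM (TMM-scaled, vertical axes starting at 0) of each Fos and Jun gene in the 4 WT (blue) and 4 HOM (red) libraries, numbered by replicate; lines are group means and bars 1 SD. Fos, Fosb, Fosl2 and Junb lay lower in every HOM library than in any WT library, while the groups overlapped for Jun and Jund.

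Fos (ENSMUSG00000021250, chromosome 12, 85473890 to 85477273, plus strand, GRCm38) encodes c-Fos, the activity-induced partner of Jun proteins. In WT replicates 1 to 4 its level was 49.998, 35.01, 42.9 and 29.6 CPM. In HOM replicates 1 to 4 it stood at 19.7, 12.5, 5.27 and 5.34 CPM. Every HOM library lay below every WT library, and HOM replicates 3 and 4 lay far below HOM replicate 1, so that the spread relative to the mean was wider in HOM (coefficient of variation 64.3%) than in WT (22.7%). The means were 39.4 ± 8.94 and 10.7 ± 6.88 CPM (SD, n = 4), and the log2 fold change was -1.88 (SE 0.35, 95% interval -2.64 to -1.12; edgeR adjusted p = 0.0149). Counts were 934 to 1849 in WT and 170 to 711 in HOM, so counting error was small beside the spread between libraries. The call was lost without WT replicate 3 (edgeR adjusted p = 0.0521) and without HOM replicate 3 (0.0532), with log2 fold changes of -1.84 and -1.64, and with the robust setting of the test (0.0702); over all 20 alternative fits adjusted p ranged from 0.000456 to 0.169.

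Fosb (ENSMUSG00000003545, chromosome 7, 19302696 to 19310051, minus strand) encodes FosB and, by alternative splicing, the long-lived truncated form ΔFosB; 1 count per gene does not separate them. It stood at 24.3, 24.03, 25.3 and 20.2 CPM in WT replicates 1 to 4 and at 9.54, 8.29, 9.18 and 9.57 CPM in HOM replicates 1 to 4. The libraries of each genotype lay close together and far from the other genotype. With means of 23.5 ± 2.23 and 9.15 ± 0.598 CPM (SD, n = 4), the log2 fold change was -1.36 (SE 0.09, 95% interval -1.56 to -1.15; edgeR adjusted p = 2.44e-05). Fosb thus had the tightest groups in HOM of the 6 genes, with a coefficient of variation of 6.53%, and did not share the wide spread of Fos there. HOM replicate 1, highest for Fos, was level with HOM replicate 4 for Fosb.

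Fosl2 (ENSMUSG00000029135, chromosome 5, 32135801 to 32157842, plus strand) encodes Fra-2, a Fos protein without the strong activation domain of c-Fos. In WT replicates 1 to 4 the level of Fosl2 was 47.7, 46.2, 57.8 and 41.1 CPM, against 26.7, 23.1, 23.0 and 19.2 CPM in HOM replicates 1 to 4. The lowest WT library was well above the highest HOM library. Means were 48.2 ± 6.99 and 23.0 ± 3.07 CPM (SD, n = 4; log2 fold change -1.07, SE 0.12, 95% interval -1.32 to -0.81; edgeR adjusted p = 8.72e-04). Fosb and Fosl2 kept their calls in all 20 alternative fits, the 8 with 1 library left out included.

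Junb (ENSMUSG00000052837, chromosome 8, 84974484 to 84978718, minus strand) encodes the Jun protein that is induced together with Fos and is a weaker activator than c-Jun on many sites. It stood at 105.9, 108.5, 92.2 and 64.8 CPM in WT replicates 1 to 4 and at 57.3, 44.2, 31.6 and 43.4 CPM in HOM replicates 1 to 4. The groups did not overlap, although WT replicate 4 and HOM replicate 1 were close. Means were 92.8 ± 20.03 and 44.1 ± 10.5 CPM (SD, n = 4; log2 fold change -1.07, SE 0.18, 95% interval -1.46 to -0.68; edgeR adjusted p = 0.00957). Its fold change was as large as that of Fosl2, and the call held with each library left out in turn. The last 351 bases of its span, 8.29% of it, are shared with Prdx2, which lies on the opposite strand and did not pass (0.03, SE 0.09).

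Jun (ENSMUSG00000052684, chromosome 4, 95049034 to 95052222, minus strand), a gene of a single exon, encodes c-Jun, the main target of JNK kinases. It stood at 49.7, 54.3, 45.7 and 51.5 CPM in WT replicates 1 to 4 and at 53.2, 58.2, 70.3 and 70.7 CPM in HOM replicates 1 to 4. HOM replicates 3 and 4 lay above all others, and HOM replicate 1 lay below WT replicate 2. The means were 50.3 ± 3.60 and 63.1 ± 8.78 CPM (SD, n = 4), a log2 fold change of 0.33 (SE 0.10, 95% interval 0.12 to 0.54, not adjusted for the number of genes) that did not pass (edgeR adjusted p = 0.0690). It passed with DESeq2 (adjusted p = 0.0214), without the filter on low counts (0.0416) and with 1 surrogate variable from scaled log2 CPM (0.0421, a fit added after the data were seen), at log2 fold changes of 0.33, 0.34 and 0.27, and the adjusted p of all 20 alternatives ranged from 0.0214 to 0.469. An antisense gene, Junos, covers 21.6% of the Jun span, and reads there may have been dropped; Junos itself did not pass (0.26, SE 0.12).

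Jund (ENSMUSG00000071076, chromosome 8, 70698949 to 70700616, plus strand), also of a single exon, encodes JunD, the most steadily expressed Jun protein. It stood at 100.8, 149.9, 99.8 and 97.8 CPM in WT replicates 1 to 4 and at 115.0, 103.8, 122.7 and 149.2 CPM in HOM replicates 1 to 4. WT replicate 2 and HOM replicate 4 were high and the groups overlapped. Means were 112 ± 25.3 and 123 ± 19.3 CPM (SD, n = 4), a log2 fold change of 0.13 (SE 0.14, edgeR adjusted p = 0.624). The 95% interval, -0.18 to 0.44, spans levels from 0.883 to 1.36 times that of WT. The antisense gene Gm11175 covers 55.1% of the Jund span and stood at 0 in all 8 libraries, so the values of Jund may rest on the rest of its span.

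**Figure D2:**
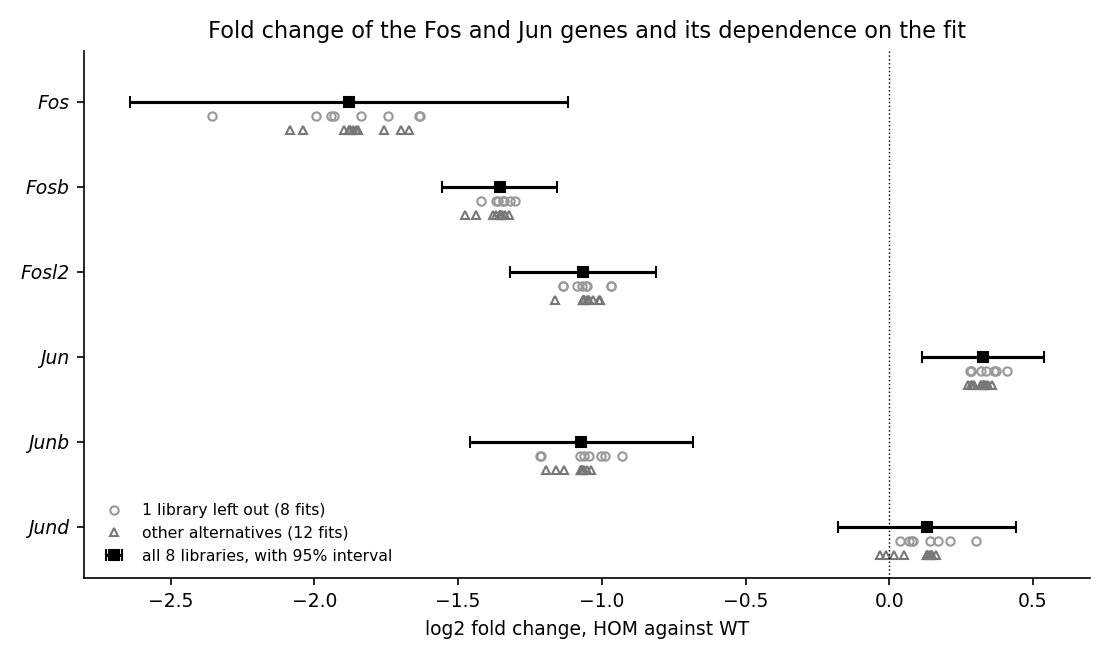
Log2 fold change of HOM against WT (horizontal axis) for each gene: squares with bars are the fit of all 8 libraries and its 95% interval, circles the 8 fits with 1 library left out, triangles the other 12 alternatives. The values of Fos, Fosb, Fosl2 and Junb stay below 0 in every fit shown, those of Jun stay above 0, and those of Jund lie on either side of 0.

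Per kilobase of the span that no other gene shares, the WT levels were 149.6 ± 33.7 CPM for Jund, 23.9 ± 5.16 for Junb, 20.1 ± 1.44 for Jun, 11.6 ± 2.64 for Fos, 3.19 ± 0.304 for Fosb and 2.19 ± 0.317 for Fosl2 (SD, n = 4). On this scale Junb and Jun did not differ beyond their spread. In HOM the order was Jund at 163.8 ± 25.8, Jun at 25.2 ± 3.51, Junb at 11.4 ± 2.70, Fos at 3.16 ± 2.03, Fosb at 1.24 ± 0.0813 and Fosl2 at 1.04 ± 0.139 CPM per kilobase. Junb thus stood below Jun in HOM by more than the spread on this scale. In HOM Fos and Fosb did not differ beyond their spread on this scale. Per kilobase of exon the order in WT changed, with Fos at 16.7 ± 3.80 close to Jun at 15.8 ± 1.13, and Fosl2 at 4.98 ± 0.722 above Fosb at 3.76 ± 0.358. Per kilobase of exon Junb stood at 40.3 ± 8.70 in WT, above Jun by more than the spread. In HOM Junb at 19.2 ± 4.56 and Jun at 19.8 ± 2.75 did not differ beyond their spread per kilobase of exon. Counts that take in introns raise long genes such as Fosl2 on the exon scale, and lost antisense overlaps lower Jund, so the order between genes is approximate.

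The Fos genes, Fosl1 not included, were lower relative to the Jun genes in every HOM library than in any WT library. The mean log2 CPM of Fos, Fosb and Fosl2 minus that of Jun, Junb and Jund was -1.06, -1.50, -0.91 and -1.24 in WT replicates 1 to 4. It was -2.04, -2.26, -2.64 and -2.95 in HOM replicates 1 to 4. The means were -1.18 ± 0.252 and -2.47 ± 0.402 (SD, n = 4), a difference of -1.29 on the log2 scale. Since the genes were chosen with earlier results in view, this is a description and was not tested. The mean of the Fos genes differed by -1.50 and that of the Jun genes by -0.20, the latter combining the fall of Junb with means of Jun and Jund above those of WT.

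Ratios within the library show the same contrast without any scaling between libraries. There were 0.575 to 1.01 Fos counts for each Jun count in WT and 0.0749 to 0.370 in HOM. Junb counts per Jun count were 1.26 to 2.13 in WT and 0.449 to 1.08 in HOM. Jund counts per Jun count overlapped, at 1.90 to 2.76 in WT and 1.74 to 2.16 in HOM. Jun and Jund together made up 39.8% to 48.9% of the summed CPM of the 6 genes in WT and 59.8% to 73.9% in HOM. Fosl2 counts per Fos count were 0.953 to 1.39 in WT replicates and 1.36, 1.85, 4.37 and 3.60 in HOM replicates 1 to 4, so in HOM replicates 3 and 4 Fos was low even against its relative.

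Within genotypes the 6 genes did not vary as 1 unit. After the genotype mean was subtracted, log2 CPM of Fos correlated over the 8 libraries with Junb (Pearson r = 0.717) and Fosl2 (0.678), hardly with Fosb (0.121), and inversely with Jun (-0.920). Jun and Jund correlated at 0.638, and Fosb and Jun at -0.055. These values describe 8 libraries that share genotype groups and scaling, and in HOM Fos was lowest and Jun highest in replicates 3 and 4.

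**Figure D3:**
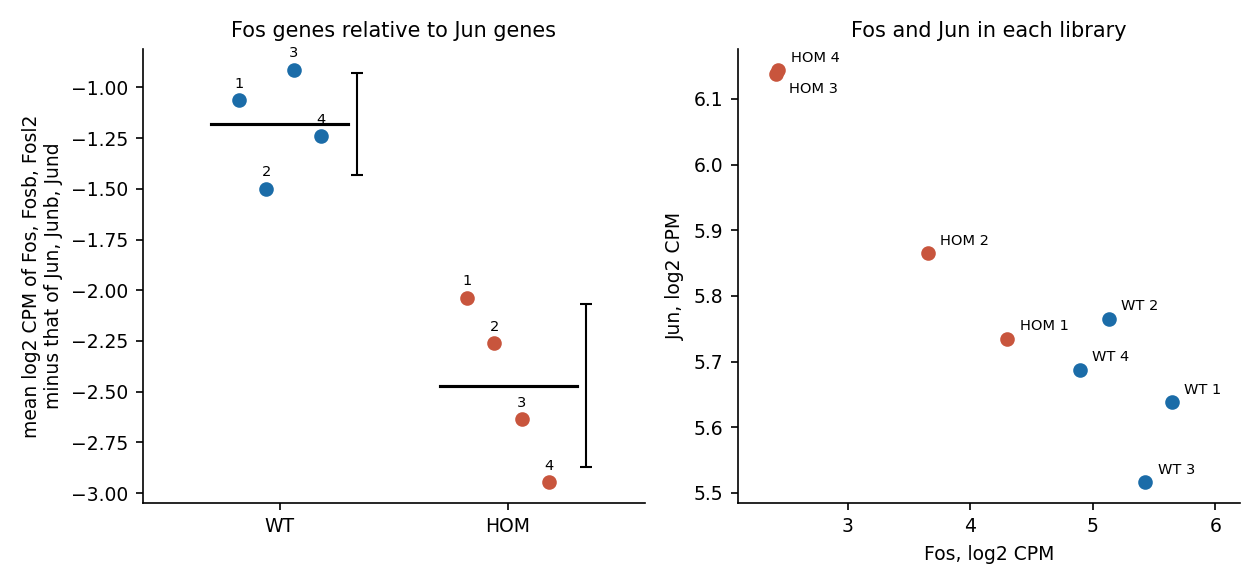
Left, the mean log2 CPM of Fos, Fosb and Fosl2 minus that of Jun, Junb and Jund in each library, numbered by replicate, with group means and 1 SD; right, log2 CPM of Fos (horizontal) and Jun (vertical) in each library, WT blue and HOM red. The HOM libraries lie at -2.04 or below on the left, and HOM replicates 3 and 4 combine the lowest Fos with the highest Jun on the right.

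The genes of most similar pattern were sought among 13404 other protein-coding genes of at least 1 CPM, by Pearson r of log2 CPM over the 8 libraries, a value that includes the genotype difference. Nearest to Fos were Arc (r = 0.994), Sik1 (0.985) and Nr4a1 (0.981), at r of 0.980, 0.943 and 0.948 within genotypes. Nearest to Fosb were Egr2 (0.987), Plk3 (0.987) and Slc43a2 (0.986), but within genotypes these r fell to 0.560, 0.338 and 0.582. Nearest to Fosl2 were Egr1 (0.990), Egr3 (0.988) and Actn4 (0.984), and nearest to Junb were Kcnip3 (0.976), Fbxo34 (0.969) and Ier2 (0.969). The genes nearest to Jun were Fbxo15 (0.982), Recql5 (0.959) and Elk1 (0.959). With so many candidates and 8 libraries, high values are found for any gene.

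Among the genes of other proteins that pair with Fos or Jun, 1 passed the test. Of 16 such bZIP genes, 14 were tested, 1 fell, none rose, and the median log2 fold change was -0.21 (0.00 over all genes tested). Of the 14 tested, 13 had fold changes below 0. For this list and those that follow, the shares over all genes tested were 2.94% called lower and 2.47% called higher. The 1 that fell was Mafa, of the large Maf proteins, at 2.11 CPM in WT and 1.06 CPM in HOM (log2 fold change -1.0003, SE 0.27, edgeR adjusted p = 0.0492), a value at the threshold that was lost in each removal of 1 library except that of WT replicate 3 (0.0640 to 0.138) and on removal of both WT replicate 4 and HOM replicate 4 (0.102). Fosl1 encodes Fra-1, itself a Fos protein, and is listed here as a partner of Jun proteins. It stood at 11.6 CPM in WT and 12.7 CPM in HOM, with a log2 fold change of 0.14 (SE 0.10). It shares 32.9% of its span with Ccdc85b. Atf3, a stress-induced partner of Jun, was near 0.67 and 0.44 CPM (-0.58, SE 0.36), and Jdp2, a repressor of AP-1, gave -0.23 (SE 0.09); neither passed. Batf and Nrl were too low to test. Atf7, counted as tested, shares 99.6% of its span with other genes. It stood at 0.70 CPM in WT and 0.59 CPM in HOM, so its level was hardly measured.

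Among the listed genes of the serum response factor and CREB groups, which act on Fos promoters, none passed the test as lower. Of the ternary complex factors and myocardin-related coactivators of serum response factor none of 5 passed; Srf itself has no value, since its span lies within other genes. The smallest p were those of Mrtfb (0.35, SE 0.11) and Mrtfa (0.16, SE 0.07). Mrtfb passed as higher with DESeq2 (adjusted p = 0.0473) and with 1 surrogate variable from scaled log2 CPM (0.0454). Of 8 CREB family members and coactivators 1 rose and none fell: Crtc3, a calcium-regulated coactivator of CREB, from 35.4 to 44.7 CPM (0.33, SE 0.07, edgeR adjusted p = 0.0228). Removal of WT replicate 1, 3 or 4 or of HOM replicate 1 or 3 ended its call (0.0544 to 0.0783), as did that of WT replicate 4 and HOM replicate 4 together (0.0579). Creb1 gave -0.11 (SE 0.08).

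Kinases of the ERK arm, which carry calcium and growth factor signals to Fos, had none of 10 members past the threshold, with a median of 0.03. Smallest in p were the nuclear kinase gene Rps6ka5 (0.30, SE 0.08, edgeR adjusted p = 0.0552) and Mapk3, which encodes ERK1 (0.29, SE 0.09, 0.0749). Rps6ka5 passed without HOM replicate 4 (0.0218) and Mapk3 without HOM replicate 2 (0.0378); of the 20 alternative fits 7 called Rps6ka5 and 4 called Mapk3. Of 13 genes of the JNK arm, whose kinases phosphorylate c-Jun, 1 fell and none rose, at a median of -0.10. Map2k7, counted among them, shares 98.6% of its span with other genes. It stood at 1.04 CPM in WT and 1.06 CPM in HOM, so its level was hardly measured. Mapk9, which encodes JNK2, fell from 274.6 to 217 CPM (-0.34, SE 0.07, edgeR adjusted p = 0.0196), and removal of WT replicate 3, HOM replicate 1 or HOM replicate 3 ended this call (0.0734 to 0.0780), as did that of WT replicate 4 and HOM replicate 4 together (0.0574).

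Genes with AP-1 sites described in their regulatory DNA showed no shared direction. Of 15, 13 were tested, 1 fell, none rose, and the median was 0.04. The neuropeptide gene Npy fell from 33.9 to 23.1 CPM (-0.55, SE 0.13, edgeR adjusted p = 0.0348), a call that ended when WT replicate 3 or HOM replicate 1, 2 or 3 was removed (0.0543 to 0.118). Without WT replicate 4, 1 gene of the list was called higher, the neurotensin gene Nts (0.71, edgeR adjusted p = 0.0424), which is named after its value was seen and did not pass with all libraries (0.46, SE 0.21). The opioid peptide precursor genes Penk (0.16, SE 0.13) and Pdyn (0.17, SE 0.10) and the cyclin gene Ccnd1 (-0.16, SE 0.09) did not pass. Timp1 has no value, since its span lies within another gene, and Mmp3 held 2 counts in all.

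Activity-induced transcription factors outside AP-1 fell alongside the Fos genes. Of 10 tested 9 fell, none rose, and the median was -0.97. Over all genes tested 2.94% were called lower and 2.47% higher. This list was drawn up with earlier results of these data known, so the count is a description. The Egr zinc-finger genes Egr2 (-2.73, SE 0.18), Egr1 (-1.54, SE 0.13), Egr4 (-1.37, SE 0.13) and Egr3 (-0.81, SE 0.07) and the Krüppel-like factor gene Klf4 (-0.88, SE 0.15) passed in all 20 alternative fits. Nr4a3 (-1.04, SE 0.14), Nr4a1 (-0.999, SE 0.22), Ier2 (-0.93, SE 0.22) and Nr4a2 (-0.30, SE 0.07) fell as well. Npas4, which is induced by calcium alone, went from 20.99 to 12.6 CPM and did not pass (-0.73, SE 0.27, edgeR adjusted p = 0.133). Npas4 did pass as lower with the replicate block (-0.79, edgeR adjusted p = 0.0296). It also passed without HOM replicate 1 (-1.09, edgeR adjusted p = 0.0404) and is among the 8 lower in that fit. With 1 library left out 6 to 8 were lower, and there were 6 when WT replicate 3, HOM replicate 3 or HOM replicate 4 was the one removed. With the choroid plexus covariate described further on 5 were lower, as Nr4a1 (edgeR adjusted p = 0.231), Nr4a2 (0.326), Nr4a3 (0.0858) and Ier2 (0.278) did not pass. With 1 surrogate variable from unscaled counts 7 were lower, without Nr4a1 (0.0626) and Nr4a2 (0.0843). Ier2 lost its call in every removal except that of WT replicate 4. Removal of WT replicates 3 or 4 or of HOM replicates 1, 3 or 4, each alone, ended that of Nr4a2, and so did removal of WT replicate 4 and HOM replicate 4 together (0.116). That of Nr4a1 ended on removal of WT replicates 1 or 3 or of HOM replicates 3 or 4. Among these 10 Egr2 alone had a log2 fold change below the -1.88 of Fos.

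**Figure D4:**
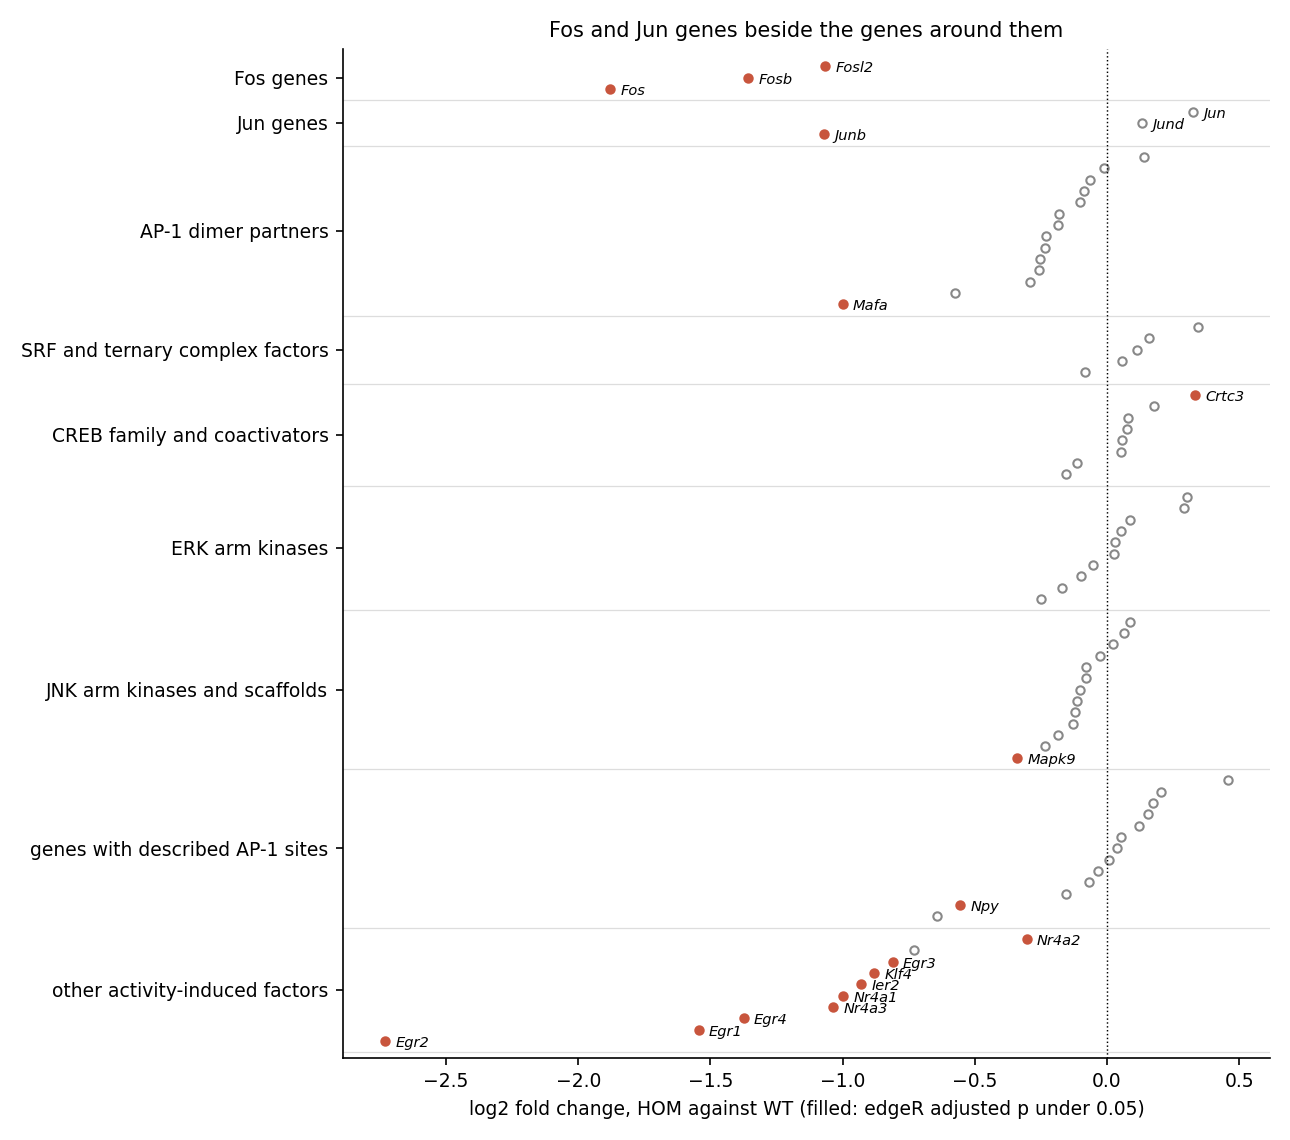
Log2 fold change of HOM against WT (horizontal axis) of each tested gene, grouped by list (vertical axis); filled red points passed the threshold and are named, grey open points did not (of these, Jun and Jund are named). The Fos genes, Junb and most other activity-induced factors lie below -0.7, while the signalling and partner genes other than Mafa lie nearer to 0.

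Markers of several cell types moved with genotype as well, beside 2.94% called lower and 2.47% called higher over all genes tested. Of 15 choroid plexus markers 14 were tested and 6 fell; their CPM summed to 904, 678, 457 and 2912 in WT replicates 1 to 4 and to 472, 211, 209.8 and 169.8 in HOM replicates 1 to 4, with Kcnj13 at 0 in every library because its span lies within another gene. Of 8 endothelial markers 3 fell (summed CPM 205 to 260.5 in WT and 167 to 202 in HOM), and of 9 markers of mural cells and fibroblasts none passed (148 to 162.5 and 118 to 137). Of 7 tested microglial markers 1 rose, and P2ry12 stood at 0 since its span lies within another gene. Of 3 tested general neuronal markers 1 fell (4063 to 4831 and 3529 to 3949), and Tubb3 was at 0 for the same reason. Of 6 inhibitory neuron markers 1 fell, Gad1, which encodes a GABA-synthesizing enzyme (-0.48, SE 0.07, edgeR adjusted p = 0.00457), and all 6 had fold changes below 0 (summed CPM 783 to 911 in WT and 681 to 737 in HOM). Of 5 excitatory neuron markers Neurod6 alone passed (-0.29, SE 0.08, edgeR adjusted p = 0.0485), with all 5 below 0 (6148 to 7326 and 5527 to 6449). Of 5 tested astrocyte markers Aqp4 alone passed, as lower (-0.40, SE 0.10, edgeR adjusted p = 0.0417), with all 5 below 0 (4117 to 4432 and 3200 to 4043), and Gfap was at 0 since its span lies within another gene. None of 6 oligodendrocyte markers passed, with all 6 below 0 (3651 to 5483 and 3147 to 3846), and none of 5 striatal neuron markers passed (341 to 394 and 291 to 419).

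The 4 genes are described here beside choroid plexus content, in 1 pair of libraries and in 1 fit with a covariate. WT replicate 3 and HOM replicate 1, chosen after their marker sums of 457 and 472 CPM were seen, differed at Fos (42.9 and 19.7 CPM), Fosb (25.3 and 9.54), Fosl2 (57.8 and 26.7) and Junb (92.2 and 57.3). This pair holds 1 library of each genotype, and WT replicate 3 was the highest WT library for Fosb and Fosl2. Single markers were not matched in the pair. Enpp2 stood at 306 CPM in WT replicate 3 and 232 CPM in HOM replicate 1, and Ttr at 122 and 202 CPM. WT replicate 4, with the highest marker sum, had the lowest WT level of all 4. With the mean log2 CPM of the markers as a covariate, Fosb (log2 fold change -1.48, edgeR adjusted p = 0.00130) and Fosl2 (-1.16, 0.0230) passed, whereas Fos (-1.67, 0.169) and Junb (-1.16, 0.103) did not. Marker level and genotype vary together, so the fit with the covariate has wider errors for genotype. The part of choroid plexus, endothelial, mural, glial and neuronal content in the result was not tested.

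**Figure D5:**
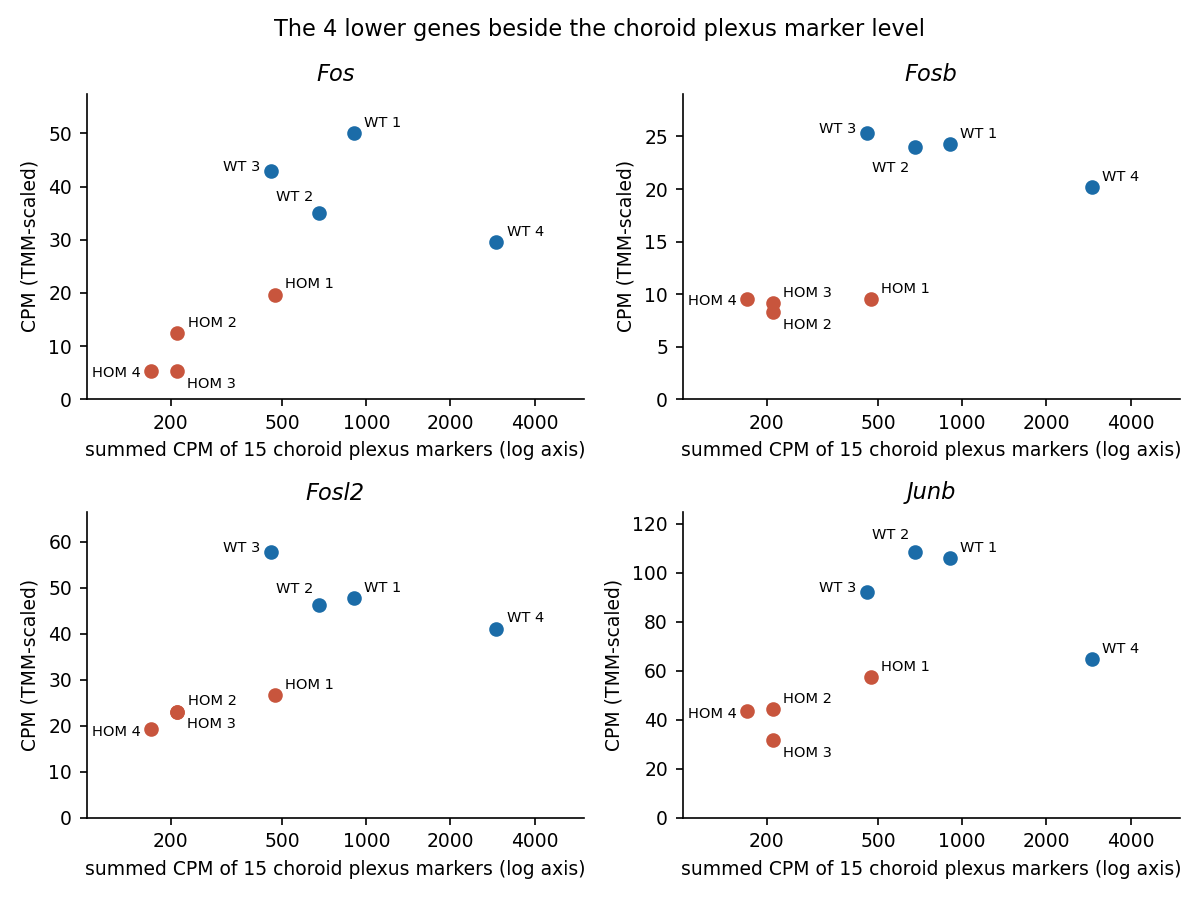
CPM of Fos, Fosb, Fosl2 and Junb (vertical axes starting at 0) against the summed CPM of 15 choroid plexus markers (horizontal log axis) in each library, WT blue and HOM red. WT 3 and HOM 1 have near-equal marker sums, though not equal single markers, and differ at each of the 4 genes. WT 4 has the largest sum and the lowest WT level.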

How the data were processed

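For the 8 samples the authors deposited raw read counts, as whole numbers per Ensembl gene. Per the labels' protocols, stranded paired-end TruSeq libraries were made from column-purified total RNA. STAR, featureCounts, edgeR, FastQC 0.11.3 and the build GRCm38 are named, per the submitters' processing notes, without other versions, an annotation or a strand setting. Symbols came from GENCODE M21, which held 54409 of the 54446 identifiers. Of 1280 protein-coding genes nested in another gene, 1261 stood at 0 in every library, 834 of the 847 nested on the opposite strand among them. The counts are thus taken to span introns, to ignore strand and to drop shared reads.

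The main test was the quasi-likelihood test of edgeR 4.0.16 (R 4.3.3) with TMM scaling, the filterByExpr filter (about 10 counts in 4 libraries) and Benjamini-Hochberg adjustment over 17395 genes at a threshold of 0.05. The standard error is the log2 fold change divided by the square root of F. Log2 CPM used a prior count of 2. The script was tested on simulated counts. All pairs of libraries differed by more than sampling noise (lowest chi-square per degree of freedom 7.09), so each counted as 1 sample. The members and lists were chosen with earlier results of these data known. Named genes are the 6 members, then from each list every gene past the threshold or else the 2 of smallest p, and the 3 protein-coding genes nearest to each member; a few list members are added to give a value. Alternatives used DESeq2 1.42.0, limma-voom 3.58.1, sva 3.50.0 (1 surrogate variable, from unscaled counts and, added after the data were seen, from TMM-scaled log2 CPM), other scalings and filters, a replicate block, a choroid plexus covariate and removal of libraries.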

Additional observations from a re-analysis of the deposited data

Results flagged for a closer look

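Jund in WT replicate 2, at 149.9 CPM, stood apart from the other 3 WT libraries, which lay between 97.8 and 100.8 CPM; its distance to the nearest was 0.944 of the range of the group. It was the 1 group flagged of 18 checked, and chance alone flags about 1 group in 20. Without WT replicate 2 the log2 fold change of Jund was 0.30 (edgeR adjusted p = 0.1097). HOM replicate 4 held nearly the same level, 149.2 CPM.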

How the results depend on the processing

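With 1 library left out the log2 fold changes ranged from -2.36 to -1.63 for Fos, -1.42 to -1.30 for Fosb, -1.14 to -0.97 for Fosl2, 0.28 to 0.41 for Jun, -1.22 to -0.93 for Junb and 0.04 to 0.30 for Jund, with 3 to 4 members lower, 0 higher and 180 to 1187 genes called in all (940 with all libraries; 181 without WT replicate 3, 180 without HOM replicate 3). DESeq2 called 1900 genes and put 1 member higher, Jun (0.33); no filter did so as well (Jun 0.34, 1 higher). Robust quasi-likelihood left Fos at -1.88 and not called. The choroid plexus covariate gave Fos -1.67, Junb -1.16, Jund -0.011, 2 members lower and 39 genes called; without WT replicate 4 and HOM replicate 4 together, Jund stood at -0.031 and 335 genes were called. With 1 surrogate variable 258 genes were called when it was estimated from unscaled counts, and 2447 when it was estimated from TMM-scaled log2 CPM, a fit added after the data were seen; the count thus depends on how the variable is estimated, and the scaled fit put 1 member higher, Jun (0.27), and 3 dimer partners lower (Atf2, Mafa and Mafk). With a replicate block 364 were called and all 4 lower members passed. The labels do not say whether the numbers pair the samples. Same-numbered libraries deviated together at r of 0.047, -0.196, -0.007 and 0.028. Differently numbered libraries gave r from -0.215 to 0.248, so these values do not decide whether samples were paired. The block, the surrogate variable from unscaled counts and the covariate each ended the calls of Mafa, Crtc3, Mapk9, Npy and Nr4a2; that variable and the covariate also ended that of Nr4a1, and the covariate those of Nr4a3 and Ier2. The surrogate variable from scaled values ended none of these calls. The cause of these differences was not tested. RLE and upper-quartile scaling, limma-voom and the 1 CPM filter changed no call of the 6 genes. Both scalings and limma-voom ended the call of Mafa, and robust quasi-likelihood ended that of Nr4a1. Counting error was small for all members; strand, introns and overlaps limit Jun and Jund most.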

Other observations

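Over the 8 libraries log2 CPM of Jund correlated with Jun (r = 0.627) and weakly and inversely with the 4 genes that fell (r from -0.476 to -0.157). After the genotype mean was subtracted Jund gave r of -0.451 with Fos, -0.379 with Fosl2, 0.403 with Fosb and 0.223 with Junb. Its nearest genes over the 8 libraries were Mapkapk5 (r = 0.990), Elfn1 (0.983) and the presynaptic adhesion gene Nrxn2 (0.980), and these r were 0.991, 0.983 and 0.989 within genotypes. Their log2 fold changes were 0.36 (SE 0.41), 0.09 (SE 0.09) and 0.03 (SE 0.08), none of them called.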
